A study of Mus musculus with 4 samples.

Results

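The nuclear genes for mitochondrial ribosomal proteins were followed across 4 RNA sequencing libraries of mouse molar tooth mesenchyme. Members were taken by symbol (Mrps or Mrpl followed by a digit), which gave 76 of the 22072 gene symbols listed, 29 with a small and 47 with a large subunit symbol. All 76 reached a mean of 1 FPKM (fragments per kilobase, relative to the number of mapped reads) and were tested among 10502 genes. Tissue was taken by laser capture from frozen sections of embryonic day 13.5 heads of a mixed strain background. The mutant, Bmp4f/f;Wnt1Cre, carried floxed alleles of the signalling ligand Bmp4 and the Cre driver Wnt1Cre, which is active in neural crest cells, the source of tooth mesenchyme. The control, Bmp4f/+, carried 1 floxed allele. Its label names no Wnt1Cre, so an effect of the driver itself and the loss of Bmp4 cannot be told apart. Upper and lower molars were captured separately, giving 1 pooled library for each of mutant upper, mutant lower, control upper and control lower molar. The series text describes pooling of 3 pairs of samples.

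Mitochondria make a few hydrophobic proteins of the respiratory chain on their own ribosomes. The ribosomal RNAs of these ribosomes come from mitochondrial DNA, whereas every protein of both subunits is encoded in the nucleus, made in the cytosol and imported. The small subunit binds the messenger RNA and houses the decoding centre, and the large subunit forms peptide bonds and sits at the inner membrane. Some of the proteins descend from bacterial ribosomal proteins and others were added in the mitochondrial lineage.

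Promoters of nuclear genes for mitochondrial proteins are known for sites of the transcription factors NRF1, GABP (an ETS factor) and YY1, so the sequences upstream of the members were examined. RefSeq promoters on GRCm38.p6, each 300 bases long (250 before and 50 after a transcript start), were found for 67 of the 76 members. The NRF1 core, GCGCANGC on either strand, occurred in 21 of the 67 (31.3%), compared with 11.2% of 27025 symbols with a promoter and 24.4% of the tested genes among them. The ETS core, CCGGAAG on either strand, occurred in 24 (35.8%), compared with 9.93% of all symbols and 21.7% of tested genes. Among 224 other tested genes of similar transcript length and expression the share was 33.5% for the ETS core, close to that of the members, and 24.1% for the NRF1 core. The YY1 core, ANATGGCG on either strand, occurred in 10 (14.9%), compared with 4.23% of all symbols, 8.98% of tested genes and 9.82% of those 224. At least 1 of the 3 letter strings stood in 45 members (67.2%), compared with 45.3% of tested genes and 53.6% of the 224. These shares were not tested. Matches of 1 string can overlap each other, and a match is a string of letters, not a measured binding site.

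The 140 bases before the most upstream RefSeq start are shown for 4 members on which the results below turn, on GRCm38.p6 and 5′ to 3′ on the gene's strand, with the NRF1 core in capitals. Mrps16 had the largest difference between genotypes, Mrps12 the largest difference within 1 molar, Mrpl32 was among those lower in both mutant libraries, and Mrpl30 had the highest level.
Mrps16, small subunit, chr14:20393635-20393774, minus strand: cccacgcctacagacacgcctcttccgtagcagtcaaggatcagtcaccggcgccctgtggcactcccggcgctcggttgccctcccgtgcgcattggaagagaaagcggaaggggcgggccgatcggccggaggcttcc
Mrps12, small subunit, chr7:28741822-28741961, minus strand: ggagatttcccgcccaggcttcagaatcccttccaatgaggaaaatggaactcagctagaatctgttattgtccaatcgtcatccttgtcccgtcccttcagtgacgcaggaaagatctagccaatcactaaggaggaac
Mrpl32, large subunit, chr13:14613038-14613177, minus strand: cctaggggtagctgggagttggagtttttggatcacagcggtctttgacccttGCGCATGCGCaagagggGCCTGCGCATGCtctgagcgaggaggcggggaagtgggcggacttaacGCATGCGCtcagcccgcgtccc
Mrpl30, large subunit, chr1:37890337-37890476, plus strand: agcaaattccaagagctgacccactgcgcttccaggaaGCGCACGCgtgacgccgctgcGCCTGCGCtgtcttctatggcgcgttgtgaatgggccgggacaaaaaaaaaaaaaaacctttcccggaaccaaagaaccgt
The stretch of Mrpl32 held 5 matches of the NRF1 core, several of them overlapping, and that of Mrpl30 held 2. The stretches of Mrps16 and Mrps12 held no match of the 3 strings, and the ETS core of both genes lay elsewhere in their 300-base windows. Members with any string had a median difference between mutant and control of 0.14 for upper and -0.08 for lower molars (45 genes, log2), and members with none had 0.07 and -0.11 (22 genes).

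The libraries were of similar depth. They held about 5550000 (mutant upper), 5000000 (mutant lower), 4840000 (control upper) and 4820000 (control lower) reads on annotated transcripts, and the median member was read about 141, 105, 109 and 105 times in the same order. Counting error alone gave a member's log2 difference between 2 libraries a median standard error between 0.19 and 0.20. Bmp4 was at 4.75 and 4.90 FPKM in the mutants against 24.8 and 27.2 FPKM in the controls. The labelled tissue was checked with 9 markers of molar mesenchyme (such as Msx1, Pax9, Barx1 and Lhx8), all of them tested, whose FPKM summed to 730 and 635 in the mutant upper and lower molars and to 687 and 627 in the control upper and lower molars. None of 5 neural or glial and 5 skeletal muscle markers reached a mean of 1 FPKM. The muscle marker Actc1 came closest, at 1.06 and 0.977 FPKM in the mutants and 0.999 and 0.95 FPKM in the controls. The summed FPKM of all genes was highest in the mutant upper (158494) and lowest in the mutant lower molar (148263), against 151362 and 151441 in the control upper and lower molars. Values below are FPKM per gene, and differences are on log2(FPKM + 1).

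The mitochondrial ribosomal protein genes were all expressed, at moderate levels that spanned 16.3-fold between genes. Mean levels over the 4 libraries ran between 2.28 FPKM for Mrpl41 and 37.1 FPKM for Mrpl30, with 62 members between 3 and 20 FPKM, 7 above and 7 below. Together the 76 genes took 0.473% of the FPKM of the mutant upper, 0.456% of the mutant lower, 0.450% of the control upper and 0.456% of the control lower library. Large subunit genes had a median level of 8.50 and 6.63 FPKM in upper and lower mutant molars and 7.34 and 7.09 FPKM in upper and lower control molars. For small subunit genes the medians were 6.33 and 6.65 FPKM in the mutants and 6.13 and 6.36 FPKM in the controls. The summed FPKM of the Mrpl symbols was 2.30 and 2.21 times that of the Mrps symbols in the mutants and 2.36 and 2.27 times in the controls. Medians and sums of small and large subunit genes go by symbol here and below, unless classes by known structure are named. Mrps18a, Mrps30 and Mrps36 therefore count with the small subunit, although their proteins are placed elsewhere (below).

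The 3 highest levels belonged to large subunit genes. Mrpl30, the counterpart of bacterial L30, was at 37.3 and 34.8 FPKM in upper and lower mutant molars and 36.9 and 39.4 FPKM in upper and lower control molars. Mrpl52 was at 36.5 and 37.0 FPKM in the mutants and 34.0 and 36.8 FPKM in the controls. Mrpl42 was at 37.4 and 33.0 FPKM in the mutants and 34.9 and 34.9 FPKM in the controls. Mrpl52 and Mrpl42 are known from mitochondrial and not from bacterial ribosomes. The libraries' values of these 3 genes overlapped each other, so their order is not resolved. Mrpl18, the fourth among large subunit symbols, was at 28.3 and 21.3 FPKM in the mutants and 24.1 and 22.5 FPKM in the controls, below all 3 in every library.

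The highest small subunit gene was Mrps21, the counterpart of bacterial S21, at 27.4 and 22.2 FPKM in the mutants and 20.5 and 27.1 FPKM in the controls. Its extremes lay across genotype and molar, with the mutant higher in the upper and lower in the lower molar. Mrps33 (15.5 and 13.3 FPKM in the mutants, 15.0 and 12.6 in the controls) came next, and the libraries of the 2 genes did not overlap. Mrps15 (12.5 and 11.6 FPKM in the mutants, 9.51 and 12.6 in the controls) and Mrps2 (10.9 and 9.68 FPKM in the mutants, 10.3 and 10.7 in the controls) followed and overlapped each other. At the low end lay Mrps25 (2.87 and 2.94 FPKM in the mutants, 3.02 and 2.63 in the controls) and Mrpl44, which has the fold of an RNA-cleaving enzyme (2.0 and 2.87 FPKM in the mutants, 2.69 and 2.53 in the controls). Mrpl41 was the lowest, at 2.04 and 2.47 FPKM in the mutants and 2.10 and 2.52 FPKM in the controls. Mrpl41 overlaps Wdr85 and Mrps25 overlaps Nr2c2 in the listed loci, so reads could be shared there.

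**Figure D1:**
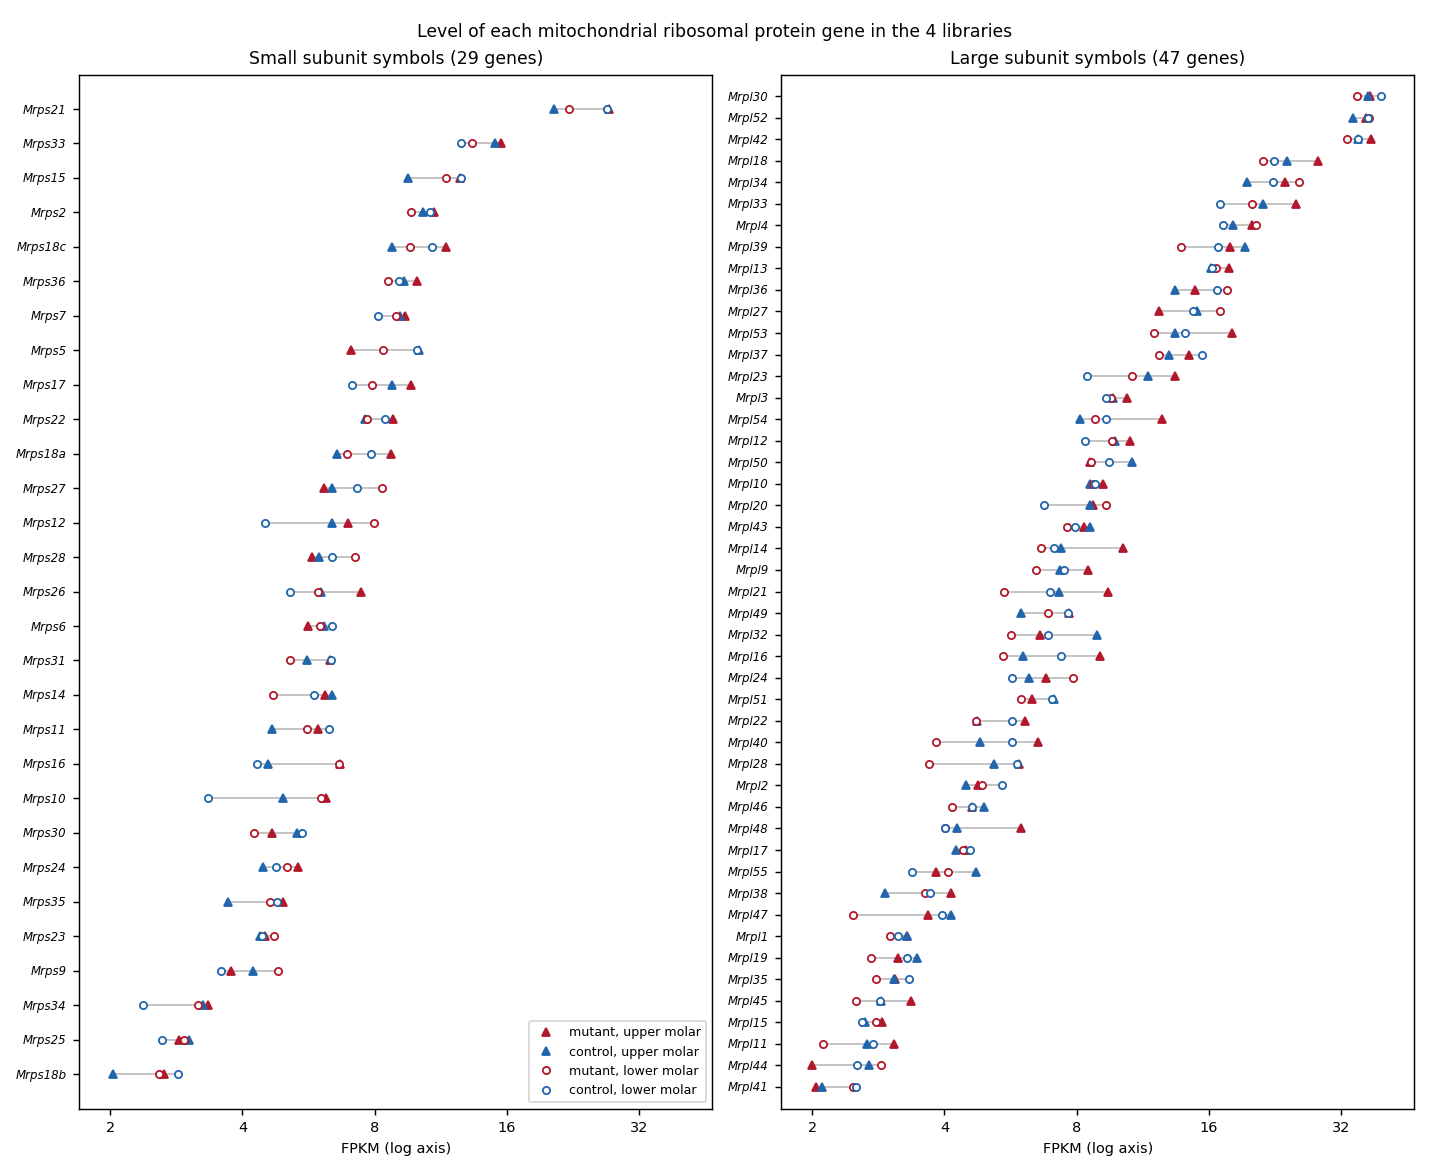
FPKM (log axis) of each of the 29 small subunit (left) and 47 large subunit (right) genes, 1 row per gene ordered by mean level; triangles are upper and circles lower molars, red is mutant and blue control, and the grey line spans the 4 libraries. Mean levels run between 2.28 FPKM (Mrpl41) and 37.1 FPKM (Mrpl30), and in most rows the colours are interleaved.

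The symbol Mrps18 is shared by 3 paralogs of bacterial S18, of which Mrps18b and Mrps18c sit in the small subunit and Mrps18a, despite its symbol, in the large subunit. Mrps18c was at 11.6 and 9.61 FPKM in the mutants and 8.74 and 10.8 FPKM in the controls. Mrps18a was at 8.72 and 6.91 FPKM in the mutants and 6.58 and 7.83 FPKM in the controls. Mrps18b was the lowest small subunit gene, at 2.65 and 2.58 FPKM in the mutants and 2.03 and 2.85 FPKM in the controls. Mrps18b lay below the other paralogs in every library. The 3 differences between mutant and control were 0.37, 0.36 and 0.27 in the upper molar and -0.15, -0.16 and -0.10 in the lower molar for Mrps18c, Mrps18a and Mrps18b.

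The first comparison asked whether loss of mesenchymal Bmp4 went with a change of these genes in both molars. No member passed the test. limma called 0 of the 76 members at an adjusted p under 0.05, whereas it called 0.800% of all genes tested. An unadjusted limma p under 0.05 was reached by 6 members (7.89%), against 13.2% of all genes tested. The 6 were Mrps16, Mrps10 and Mrps12, higher in the mutant, and Mrps5, Mrpl32 and Mrpl47, lower in the mutant. The limma standard error of a member's difference lay between 0.10 and 0.20, and among genes of similar expression the smallest difference called was 0.71 (53 genes called). With 1 library per group, p-values set a difference against the disagreement between the molars, pooled over genes, and not against the spread between embryos or pools. In bulk tissue, fewer cells of a type and less RNA per cell cannot be told apart.

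Mrps16 (chr14:21210453-21212777, mm9, the build of all gene loci here), the counterpart of bacterial S16, is a small subunit protein whose mutation impairs respiratory chain enzymes in human patients. It was at 6.67 and 6.65 FPKM in upper and lower mutant molars against 4.57 and 4.32 FPKM in upper and lower control molars. Both mutant values lay above both control values, and the molars of a genotype differed by less than the genotypes. The difference over both molars was 0.49 ± 0.11 (log2, SE, limma adjusted p = 0.14, with 2 libraries of each genotype). It rests on about 56 and 53 reads in the mutants and 34 and 32 reads in the controls, and counting error alone was 0.31 in the upper molar difference of 0.46 and 0.32 in the lower molar difference of 0.52.

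Mrps10 (chr17:47505836-47515628), the counterpart of bacterial S10, was at 6.20 and 6.04 FPKM in the mutants against 4.94 and 3.34 FPKM in the controls. The mutants were above both controls, and the control lower molar stood lowest. The difference was 0.28 for upper and 0.70 for lower molars and 0.49 ± 0.14 over both (log2, SE, limma adjusted p = 0.21). Mrps12 (chr7:29524660-29526800), the counterpart of the bacterial decoding-centre protein S12, was at 6.96 and 7.96 FPKM in the mutants against 6.40 and 4.51 FPKM in the controls. Again the control lower molar was the lowest library, with a difference of 0.11 for upper and 0.70 for lower molars (limma 0.40 ± 0.16, SE, adjusted p = 0.36). With the control lower library left out, and with it the molar term, since 3 libraries leave the additive model no residual degree of freedom, the limma differences of Mrps10 and Mrps12 were 0.26 and 0.19.

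Mrps5 (chr2:127413162-127429722), the counterpart of bacterial S5, was the member with the lowest mutant values relative to control in the upper molar. It was at 7.07 and 8.37 FPKM in the mutants against 10.1 and 10.0 FPKM in the controls, and the genotypes did not overlap (limma -0.35 ± 0.11, adjusted p = 0.28). Mrpl32 (chr13:14702568-14705304), whose precursor is processed by the m-AAA protease of the inner membrane, was at 6.59 and 5.68 FPKM in the mutants against 8.91 and 6.88 FPKM in the controls (limma -0.31 ± 0.11, adjusted p = 0.32). Its lower molars were below the upper molars in both genotypes, and the highest mutant value lay just under the lowest control value. Mrpl47 (chr3:32626419-32635677), the counterpart of bacterial L29, was at 3.66 and 2.48 FPKM in the mutants against 4.15 and 3.95 FPKM in the controls (limma -0.33 ± 0.13, adjusted p = 0.37). The mutant lower molar stood apart as the lowest of the 4.

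Of all 76 members, 23 (30.3%) were higher in the mutant in both molars, against 27.2% of genes tested. Lower in the mutant in both molars were 13 members (17.1%), against 32.4% of genes tested. In 40 of the 76 members the sign differed between molars, against 4247 of the 10502 genes tested. Both mutant libraries lay above both control libraries in 11 members, against 18.4% of genes tested. These were Mrps10, Mrps12, Mrps16, Mrps23 and Mrps24 of the small and Mrpl4, Mrpl13, Mrpl15, Mrpl20, Mrpl24 and Mrpl34 of the large subunit. Both mutant libraries lay below both control libraries in 9 members, against 23.1% of genes tested. These were Mrps5, Mrps6 and Mrps30 among Mrps symbols and Mrpl19, Mrpl32, Mrpl46, Mrpl47, Mrpl50 and Mrpl51 among Mrpl symbols.

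Other members named for the largest positive difference shared by both molars came closer to their controls. Mrps26 was at 7.45 and 5.95 FPKM in the mutants against 6.04 and 5.12 FPKM in the controls, and Mrps17 at 9.70 and 7.90 FPKM against 8.75 and 7.09 FPKM. Among large subunit genes, Mrpl23, the counterpart of a protein at the bacterial exit tunnel, was at 13.4 and 10.7 FPKM in the mutants against 11.6 and 8.45 FPKM in the controls. In these 3 genes the mutant was higher within each molar while the genotypes overlapped across molars. Mrpl33 was at 25.2 and 20.1 FPKM in the mutants against 21.3 and 17.0 FPKM in the controls, with the same overlap. Mrpl34 (23.8 and 25.7 FPKM in the mutants, 19.5 and 22.4 in the controls) and Mrpl4 (20.1 and 20.5 FPKM in the mutants, 18.2 and 17.2 in the controls) did not overlap. The limma differences of these 6 genes lay between 0.14 (Mrps17) and 0.25 (Mrpl23), with adjusted p between 0.39 and 0.64.

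Those named for the largest negative difference shared by both molars were of similar size. Mrps30, a protein of the large subunit in spite of its symbol, was at 4.67 and 4.25 FPKM in the mutants against 5.32 and 5.46 FPKM in the controls. Mrps14 was at 6.17 and 4.70 FPKM in the mutants against 6.38 and 5.82 FPKM in the controls, with overlap. Mrps6 was at 5.65 and 6.01 FPKM in the mutants against 6.13 and 6.41 FPKM in the controls, and it overlaps the listed locus of Slc5a3. In the large subunit, Mrpl50 was at 8.60 and 8.64 FPKM in the mutants against 10.7 and 9.48 FPKM in the controls, and Mrpl51 at 6.34 and 5.96 FPKM against 7.11 and 7.02 FPKM. The limma differences of these 5 genes lay between -0.23 (Mrps30) and -0.09 (Mrps6), with adjusted p between 0.45 and 0.77.

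Members chosen for a known role were read out in the same way. Mrpl12 and Mrpl10 belong with Mrpl11 to the stalk that recruits translation factors, and Mrpl12 is also known to bind the mitochondrial RNA polymerase. Mrpl12 was at 10.6 and 9.61 FPKM in the mutants against 9.79 and 8.37 FPKM in the controls. Mrpl10 was at 9.19 and 8.72 FPKM in the mutants against 8.56 and 8.81 FPKM in the controls. Mrpl11 was at 3.07 and 2.12 FPKM in the mutants against 2.66 and 2.75 FPKM in the controls, so the mutant lower molar was lowest. Mrps36, now known as part of the 2-oxoglutarate dehydrogenase complex, was at 9.98 and 8.57 FPKM in the mutants against 9.31 and 9.07 FPKM in the controls. The limma adjusted p of these 4 genes lay between 0.63 and 0.98.

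**Figure D2:**
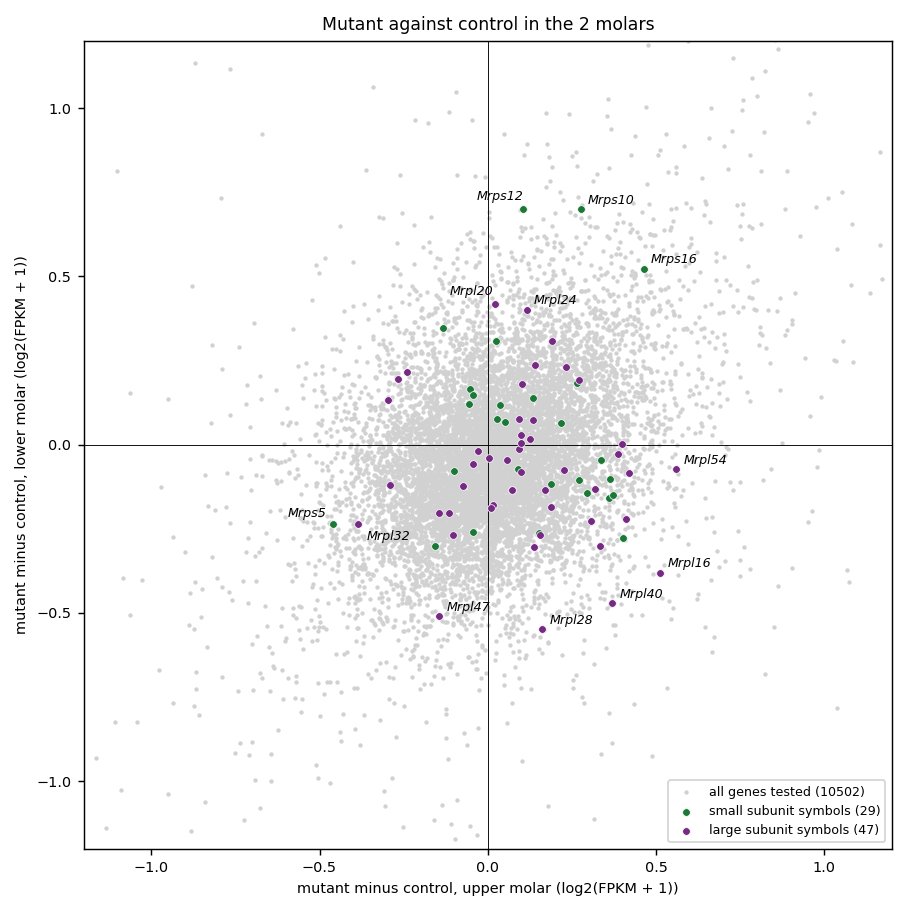
Mutant minus control difference of log2(FPKM + 1) in the upper molar (horizontal) and lower molar (vertical) for the 29 small subunit (green) and 47 large subunit (purple) genes over all 10502 tested genes (grey; genes beyond the axes are not drawn). Mrps16, Mrps10 and Mrps12 lie at the upper right, Mrps5 and Mrpl32 at the lower left, and Mrpl16 and Mrpl40 at the lower right, where the molars have opposite signs.

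Within a molar, 0 members differed at least 1.5-fold in FPKM + 1 between mutant and control in the upper molar, against 3.96% of genes tested. In the lower molar 2 did, Mrps10 and Mrps12, against 4.36% of genes tested. In FPKM itself Mrpl54 was at 153% of control in the upper molar, and Mrps16 at 154%, Mrpl28 at 62.9% and Mrpl47 at 62.7% of control in the lower molar. The members' log2 differences ran between -0.46 (Mrps5) and 0.56 (Mrpl54) in the upper molar and between -0.55 (Mrpl28) and 0.70 (Mrps12) in the lower molar. Mrpl16 and Mrpl40, both of the large subunit, had opposite signs in the molars. Mrpl16, whose bacterial counterpart lies near the peptidyl transferase centre, was at 9.05 and 5.43 FPKM in the mutants against 6.05 and 7.37 FPKM in the controls. Mrpl40, which in mouse lies head to head with Hira, was at 6.53 and 3.83 FPKM in the mutants against 4.83 and 5.69 FPKM in the controls. In both genes the mutant upper molar was the highest library and the mutant lower molar the lowest.

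As groups, members were slightly higher in the mutant upper molar and slightly lower in the mutant lower molar. The median difference of small subunit genes was 0.11 for upper and -0.04 for lower molars (29 genes). For large subunit genes it was 0.10 and -0.08 (47 genes), and for all tested genes 0.02 and -0.05. In the upper molar 56 of 76 members (73.7%) were higher in the mutant, against 53.1% of all genes tested. In the lower molar 30 of 76 (39.5%) were, against 41.6%. Rescaling the libraries by median ratios brought the median of all genes to 0.00 in both molars. The small subunit medians were then 0.09 and 0.01 and the large subunit medians 0.08 and -0.02, so the sign of the small subunit in the lower molar depends on the scaling.

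Small subunit proteins with a bacterial counterpart had medians of 0.12 and -0.01 (16 genes), and those specific to mitochondria or strongly diverged had 0.10 and 0.07 (10 genes). Large subunit proteins with a bacterial counterpart had medians of 0.11 and -0.04 (30 genes), with 11 (36.7%) above and 3 (10.0%) below control in both molars. Those specific to mitochondria or strongly diverged, Mrps18a and Mrps30 included, had 0.10 and -0.12 (19 genes), with 2 (10.5%) higher and 7 (36.8%) lower in both molars. Of all genes tested, 27.2% were higher and 32.4% lower in both. These classes follow known structures and the differences among them were not tested.

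Mitochondrial ribosomal protein transcripts are short, with a median longest transcript of 1047 bases against 2882 bases for all genes tested, so short-transcript genes of similar expression were set beside them. All 4235 other genes with a transcript of 550 to 3822 bases and a mean of 2.71 to 24.1 FPKM had a median difference between mutant and control of 0.05 for upper and -0.04 for lower molars. The median longest transcript of this wide set was 2269 bases, so most of its genes are longer than most members. A narrower set of 342 genes, 777 to 1519 bases long (median 1208) and at 4.58 to 9.86 FPKM, had medians of 0.10 and 0.03. In the upper molar the members' medians of 0.11 (small subunit) and 0.10 (large subunit) were close to that of the narrow set. In the lower molar the members' medians of -0.04 and -0.08 lay below that of the narrow set. Of the narrow set 129 genes (37.7%) were higher and 65 (19.0%) lower in both mutant molars than in their controls, compared with 30.3% and 17.1% of the members.

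Among other genes of similar expression the difference was smaller or more negative for longer transcripts. In the upper molar the median was 0.15 for transcripts of 300 to 600 bases (84 genes), 0.14 for 900 to 1200 bases (326 genes), 0.05 for 1800 to 2700 bases (1353 genes) and -0.03 for 4000 to 8000 bases (1879 genes). In the lower molar the medians of the same classes were 0.08, 0.02, -0.05 and -0.09. Members of 900 to 1200 bases, the best filled class with 21 genes, had medians of 0.23 for upper and -0.08 for lower molars. The 8 members of 300 to 600 bases had 0.39 and -0.03. The 17 members of 600 to 900 bases had 0.02 and -0.07, and the 17 of 1200 to 1800 bases 0.09 and -0.06. The part of transcript length in the members' differences was not tested.

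**Figure D3:**
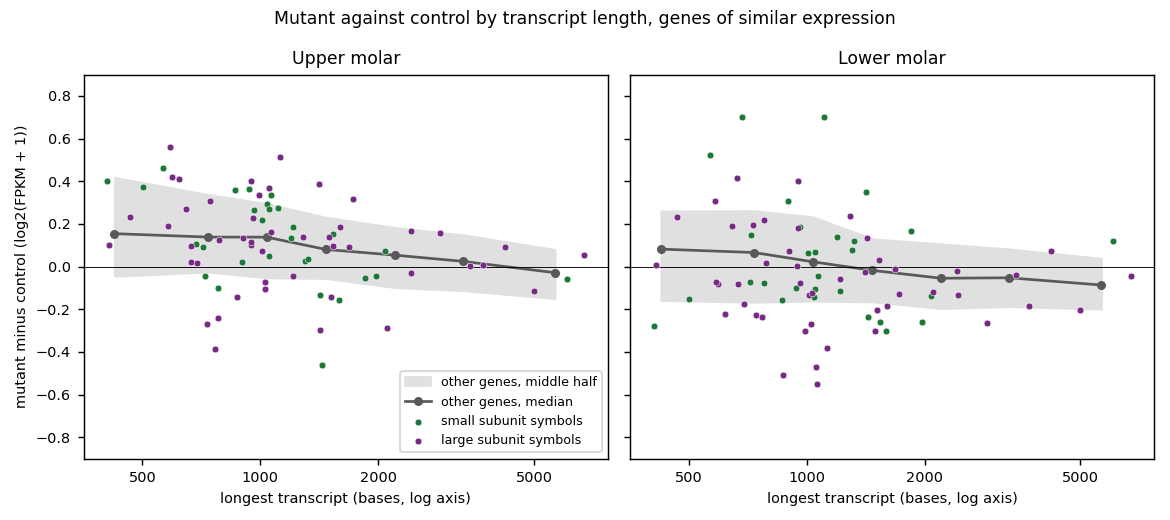
Mutant minus control difference of log2(FPKM + 1) against the longest transcript (bases, log axis) in the upper (left) and lower (right) molar, with small subunit genes in green and large subunit genes in purple; the dark line joins medians of other genes of similar expression by length class and the band spans their 25th to 75th percentile. The line runs between 0.15 at the short and -0.03 at the long end in the upper molar, and between 0.08 and -0.09 in the lower molar.

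Cytosolic ribosomal protein genes, whose many processed pseudogenes may share their reads, were set beside the members. Of 79 tested genes for cytosolic ribosomal proteins, 74 had higher mutant values in both molars and 2 lower ones, with medians of 0.23 for upper and 0.19 for lower molars. limma called 0 of the 79, with 33 at an unadjusted p under 0.05. Nuclear-encoded respiratory chain genes, whose partners the mitochondrial ribosome makes, had medians of 0.15 and 0.01, with 34 of 79 higher and 11 lower in both molars. limma called 0 of these, with 8 at an unadjusted p under 0.05. The shares higher and lower in both molars were 93.7% and 2.53% (cytosolic) and 43.0% and 13.9% (respiratory chain), against 27.2% and 32.4% of all genes tested. Of all genes tested, limma called 0.800%, and 13.2% had an unadjusted limma p under 0.05. The differences of the cytosolic ribosomal and respiratory chain groups from the mitochondrial ribosomal protein genes were not tested.

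**Figure D4:**
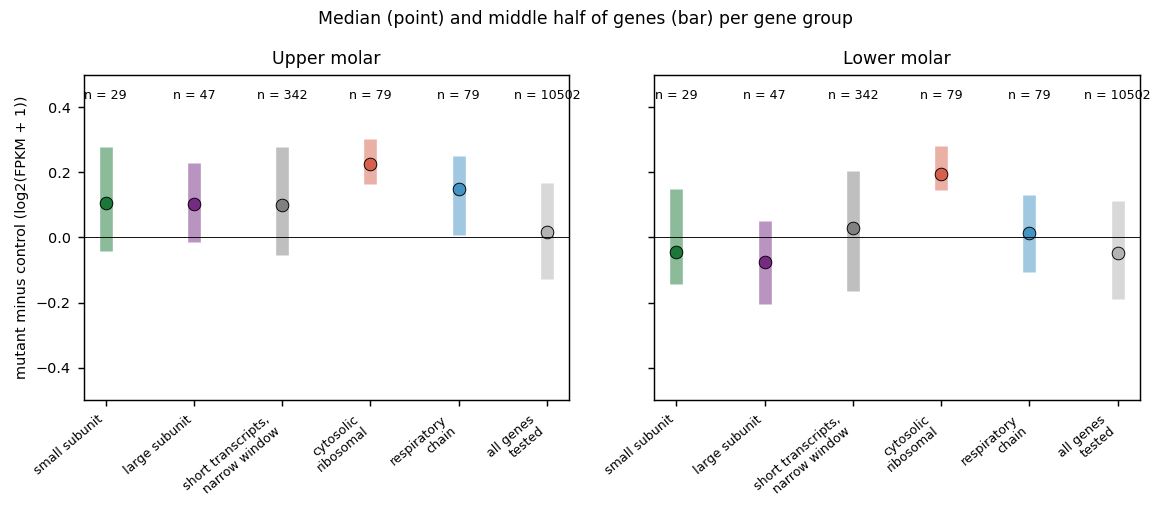
Median (point) and 25th to 75th percentile (bar) of the mutant minus control difference of log2(FPKM + 1) for 6 groups of genes in the upper (left) and lower (right) molar; n is the number of genes. Mitochondrial ribosomal protein genes lie near 0.10 in the upper molar and just below 0 in the lower molar, while cytosolic ribosomal protein genes lie at 0.23 and 0.19.

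Further genes of mitochondrial translation were examined from lists, and limma called 0 genes in each, against 0.800% of all genes tested. At most 1 gene per list reached an unadjusted limma p under 0.05, against 13.2% of all genes tested. Mitochondrial ribosomal proteins under other symbols (7 genes) had medians of 0.10 for upper and -0.08 for lower molars. Of these Ptcd3, a small subunit protein, was at 7.94 and 7.30 FPKM in the mutants against 7.32 and 6.10 FPKM in the controls, and Dap3, a small subunit protein that binds GTP, at 2.04 and 2.12 FPKM against 2.42 and 2.30 FPKM. Translation factors (12 genes) had medians of 0.07 and 0.07. In both molars 5 (41.7%) were higher and 1 (8.33%) lower, against 27.2% and 32.4% of genes tested. Mrrf, the ribosome recycling factor, was at 6.06 and 5.22 FPKM in the mutants against 5.61 and 3.71 FPKM in the controls, and Mtrf1l, a release factor, at 1.48 and 2.06 FPKM against 2.24 and 2.46 FPKM. Assembly and rRNA modification factors (18 genes) had medians of 0.08 and -0.02. Tfb1m, which methylates the small subunit rRNA, was at 2.22 and 2.92 FPKM in the mutants against 1.86 and 1.56 FPKM in the controls (limma 0.39 ± 0.16, adjusted p = 0.36).

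Mitochondrial aminoacyl-tRNA synthetases (18 genes tested) had medians of 0.02 and -0.02. Sars2, the seryl enzyme, lies head to head with Mrps12, with starts 187 bases apart, and was at 1.96 and 1.65 FPKM in the mutants against 2.49 and 2.32 FPKM in the controls. The neighbours had opposite signs, Mrps12 being above and Sars2 below control in both molars. In all, 23 head-to-head pairs with starts within 1000 bases held a member, and other pairs had equal signs. Mrpl50 and Zfp189 had differences of -0.29 and -0.37 for upper and -0.12 and -0.14 for lower molars. Mrpl40 and Hira had 0.37 and 0.07 for upper and -0.47 and -0.27 for lower molars. Whether members and their neighbours differ in the same direction was not tested. Mrpl46 and Mrps11, 42 bases apart, are both members. Mrpl46 was at 4.62 and 4.17 FPKM in the mutants against 4.91 and 4.63 FPKM in the controls, and Mrps11 at 5.94 and 5.61 FPKM against 4.66 and 6.30 FPKM. Psma2, a proteasome subunit that neighbours Mrpl32, was at 40.2 and 30.6 FPKM in the mutants against 34.7 and 32.6 FPKM in the controls.

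Genes for import into mitochondria (20 genes) had medians of 0.15 and 0.01. In both molars 8 were higher and 2 lower, against 27.2% and 32.4% of all genes tested. Timm13, a chaperone of the intermembrane space, was at 5.13 and 4.95 FPKM in the mutants against 3.65 and 3.74 FPKM in the controls (limma 0.36 ± 0.11, adjusted p = 0.26). Genes for mitochondrial DNA maintenance and transcription (8 genes) had medians of 0.14 and -0.05. Mitochondrial chaperones and proteases (12 genes) had 0.04 and -0.03, and Hspe1, a chaperonin, was at 57.1 and 56.8 FPKM in the mutants against 49.3 and 49.8 FPKM in the controls.

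Known regulators of nuclear genes for mitochondrial proteins had medians of -0.13 for upper and -0.26 for lower molars (8 genes tested). For all genes tested the medians were 0.02 and -0.05. Of the 8 regulators, 0 were above and 6 below control in both molars, against 27.2% and 32.4% of all genes tested. The regulators' difference from all genes was not tested, nor was the part of transcript length in it. Gabpa, the DNA-binding subunit of GABP, was at 13.7 and 13.3 FPKM in the mutants against 16.7 and 16.4 FPKM in the controls, without overlap (limma -0.28 ± 0.10, adjusted p = 0.34). Nrf1 was at 7.25 and 5.18 FPKM in the mutants against 7.51 and 7.19 FPKM in the controls. Mycn was at 5.12 and 3.20 FPKM in the mutants against 4.72 and 5.93 FPKM in the controls, so the molars had opposite signs. Ppargc1a, Ppargc1b and Esrra, a coactivator pair and a nuclear receptor, were under 1 FPKM in every library.

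The second comparison set lower against upper molars over both genotypes. limma called 0 of the 76 members, against 0.724% of genes tested. An unadjusted limma p under 0.05 was reached by 5 members (6.58%), against 10.2% of genes tested. Mrpl33 was at 20.1 and 17.0 FPKM in the mutant and control lower molars against 25.2 and 21.3 FPKM in the mutant and control upper molars (limma -0.31 ± 0.10, adjusted p = 0.35). Mrpl23 was at 10.7 and 8.45 FPKM in the lower molars against 13.4 and 11.6 FPKM in the upper molars (limma -0.36 ± 0.11, adjusted p = 0.31). In both genes the lower molars lay below the upper molars without overlap. Both were named for a shared negative difference, so this separation partly follows from the choice. The share of all genes tested that separate likewise was not counted. Mrps17, at 7.90 and 7.09 FPKM in the lower against 9.70 and 8.75 FPKM in the upper molars, behaved alike (limma -0.27 ± 0.11, adjusted p = 0.46). Mrpl39 was at 13.8 and 16.8 FPKM in the lower against 17.9 and 19.3 FPKM in the upper molars (limma -0.27 ± 0.11, adjusted p = 0.47). The 1 member of the 5 that was higher in lower molars was Mrpl36, at 17.6 and 16.7 FPKM against 14.9 and 13.4 FPKM in the upper molars (limma 0.26 ± 0.11, adjusted p = 0.47).

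Higher in the lower molar in both genotypes were 9 members (11.8%), against 20.8% of genes tested, and lower in both were 27 (35.5%), against 35.0% of genes tested. Beside Mrpl36, the members named for higher values in the lower molar included Mrps27, a protein with pentatricopeptide repeats, at 8.30 and 7.29 FPKM in the lower against 6.14 and 6.41 FPKM in the upper molars. Mrps28 was at 7.20 and 6.39 FPKM in the lower against 5.77 and 5.98 FPKM in the upper molars, and Mrpl41 at 2.47 and 2.52 FPKM against 2.04 and 2.10 FPKM. In these 3 genes, which were named for such differences, the molars did not overlap. How many of all genes tested separate the molars in this way was not counted. Their limma differences were 0.27, 0.18 and 0.19 for Mrps27, Mrps28 and Mrpl41, with limma adjusted p of 0.49, 0.68 and 0.71. The listed locus of Mrps27 overlaps 6430562O15Rik.

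Differences of at least 1.5-fold in FPKM + 1 between molars occurred in 3 members in the mutant, against 4.54% of genes tested, and in 0 members in the control, against 2.91%. The 3 were large subunit genes lower in the mutant lower molar, with log2 differences of -0.70 for Mrpl21, -0.64 for Mrpl16 and -0.64 for Mrpl40. Mrpl21 was at 5.46 FPKM in the mutant lower molar against 9.45 FPKM in the mutant upper molar, and at 6.96 against 7.29 FPKM in the control lower and upper molars. The median difference between lower and upper molar was -0.12 in the mutant and -0.02 in the control for large subunit genes. For small subunit genes it was -0.07 and 0.03, and for all genes tested -0.07 and 0.00. The narrow set of short-transcript genes had -0.11 in the mutant and -0.04 in the control.

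**Figure D5:**
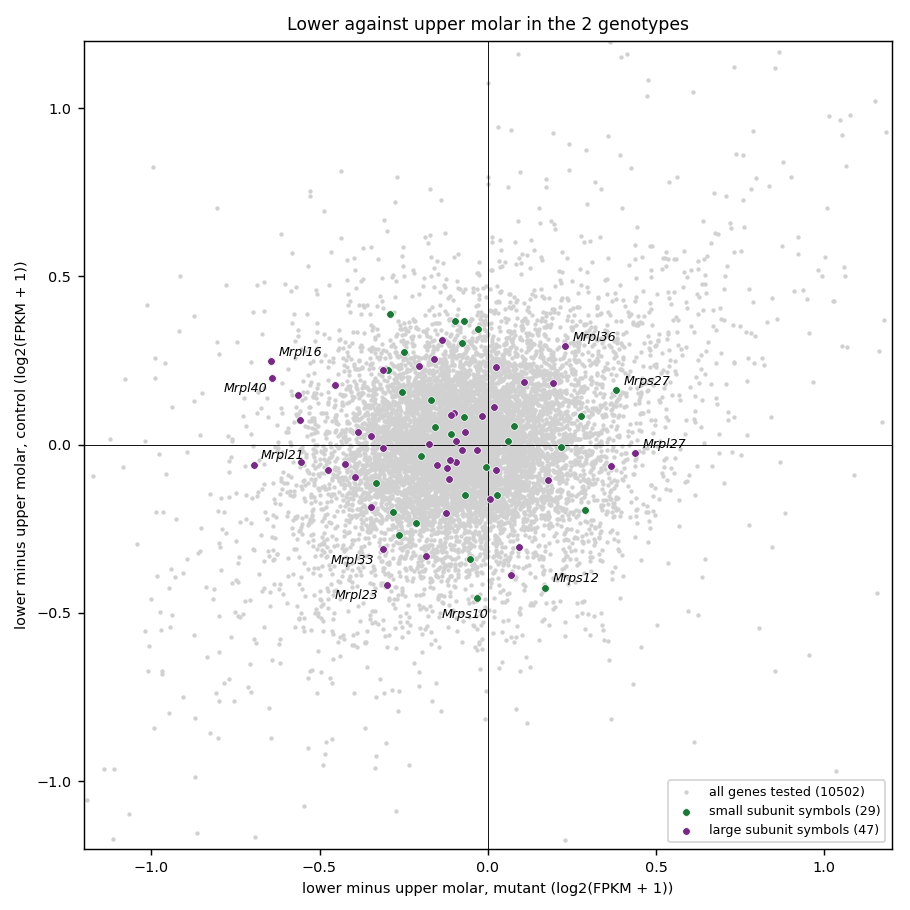
Lower minus upper molar difference of log2(FPKM + 1) in the mutant (horizontal) and the control (vertical) for small subunit (green) and large subunit (purple) genes over all 10502 tested genes (grey; genes beyond the axes are not drawn). Mrpl16, Mrpl40 and Mrpl21 lie at the left edge of the members, at -0.64, -0.64 and -0.70 in the mutant, and Mrpl23 and Mrpl33 at the lower left.

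Markers of other cell types also varied between the libraries. The 5 endothelial markers summed to 26.1 and 30.6 FPKM in upper and lower mutant molars and to 36.2 and 34.1 FPKM in upper and lower control molars. The 6 erythroid markers, led by Hbb-y and Hba-x, summed to 908 and 1070 FPKM in the mutants and 1010 and 898 FPKM in the controls, below control in the upper and above control in the lower molar. The 7 markers of dental epithelium summed to 22.0 and 20.1 FPKM in the mutants and 19.6 and 20.4 FPKM in the controls, with Shh at 0 FPKM in all libraries but the control lower molar. The 4 macrophage markers summed to 2.14 and 3.32 FPKM in the mutants and 2.90 and 2.67 FPKM in the controls. The part of these cell types in the members' differences was not tested.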

How the data were processed

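The submitters' processing notes name TopHat 1.4.1, Bowtie 0.12.7 and the build mm9. Per the file headers the tables are laid out as Cufflinks writes them, and its version and settings are not given in the sources used here. The authors' tables give FPKM per RefSeq transcript and a deposited coverage signal, which served here to estimate reads (coverage times length over a mean read of 44.2 bases). Amplified cDNA (NuGEN Ovation, Nextera, per the labels' protocols) makes reads non-independent, so counting errors cover counting only.

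FPKM was summed per gene symbol. Loci were read on mm9, and promoters on GRCm38.p6 only. limma 3.58.1 in R 4.3.3 was fitted to log2(FPKM + 1) of the 10502 genes averaging at least 1 FPKM, with additive genotype and molar terms and an intensity trend, two-sided, with Benjamini-Hochberg adjustment over all of them at 0.05. It leaves 1 residual and 5.77 prior degrees of freedom. The same script was tested on simulated data. The smaller shifts within a molar or genotype carry no test, since each group is 1 library. Short-transcript sets were all other tested genes between the members' 5th and 95th (wide) or 25th and 75th (narrow) percentiles of length and level, small RNA symbols left out.

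The members and lists were chosen with earlier results of these data known. Named members were, per subunit, the 4 highest and 2 lowest by level, the 4 most raised and 4 most reduced in the mutant and the 2 most raised and 2 most reduced in the lower molar by the smaller of their 2 differences of equal sign. They also included any at least 1.5-fold apart in a pair, the Mrps18 paralogs and 7 chosen by role, and up to 3 per list. Members named outside this rule, such as Mrpl28, Mrpl39, Mrpl54, Mrps11 and those in the counts of genotypes that do not overlap, were chosen after their values were seen, as were the head-to-head neighbours. All 85 member transcripts had a valid estimate. In 9 members the locus overlaps another listed gene, and 4 members have pseudogenes with their name in RefSeq (Mrpl23, Mrpl27, Mrpl48 and Mrps36), so their values may share reads. Pet112 of the synthetase list was not matched. Alternatives were median-ratio rescaling, other pseudocounts (0.1 and 5) and filters, no trend, no second factor, no transcripts under 0.3 kb, the most expressed transcript, other length windows and each library left out.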

Additional observations from a re-analysis of the deposited data

Results flagged for a closer look

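Opposite signs in the 2 molars or genotypes drew attention to the following values, each with 1 library per group, so that the differences were not tested. The median difference between mutant and control of small subunit genes was 0.105 for upper and -0.0443 for lower molars. For large subunit genes it was 0.1014 for upper and -0.0751 for lower molars. For all genes tested it was 0.0151 for upper and -0.0474 for lower molars. After median-ratio rescaling the lower molar medians were 0.0075 for small and -0.0162 for large subunit genes. The median difference between lower and upper molar of small subunit genes was -0.0718 in the mutant and 0.0317 in the control. For all genes tested it was -0.07 and -0.0038. After rescaling the small subunit medians were -0.0003 and 0.0342, so the mutant median was close to that of all genes and nearly vanished with the scaling. Mrpl16 differed between mutant and control by 0.5122 for upper and -0.3799 for lower molars, on about 151 and 86 reads in the mutants and 89 and 108 reads in the controls. Mrpl40 differed by 0.3703 for upper and -0.4704 for lower molars, on about 102 and 57 reads in the mutants and 67 and 78 reads in the controls.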

How the results depend on the processing

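limma called 0 members in either comparison under all 13 alternatives, while the members with an unadjusted p under 0.05 numbered between 2 and 9 for genotype and between 0 and 9 for molar, and the smallest adjusted p of a member for genotype lay between 0.084 and 0.97. The number of all genes called for genotype was 84, against 15 after median-ratio rescaling, 146 at a mean of at least 5 FPKM, 38 without a trend, 7 without a molar term, 133 without transcripts under 0.3 kb, 0 without a filter and 0 with the most expressed transcript. Leaving out 1 library also removed the term for the other factor and left 1 library in a group. Those fits compare with the 7 (genotype) and 12 (molar) rather than the 84 and 76, and their 0 calls among members say little. The members lower in the mutant in both molars numbered 8 of 53 at a mean of at least 5 FPKM, against 13. The large subunit median between molars in the mutant was -0.0504 after rescaling, against -0.1249. Short-transcript medians in the narrow window were 0.0998 (mutant against control, upper), 0.0298 (lower), -0.1099 (lower against upper molar, mutant) and -0.037 (control), and with a window on expression alone 0.0155, -0.0583 and -0.0758 for the first 3. The wide window gave 0.0538, -0.038, -0.0949 and -0.0013. Of 1052 values of the 41 named members under alternatives, 68 changed sign. For genotype the largest main difference among them was 0.15, and for molar 0.24. No gene named as higher in the mutant in both molars changed sign, and 1 named as lower, Mrps14, did. The molar term already sets mutant against control within each molar, and the labels number no replicates that could pair libraries further. About 105 to 141 reads per median member limit single values.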

Other observations

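Lars2, the mitochondrial leucyl-tRNA synthetase, was listed at 6270 and 5730 FPKM in upper and lower mutant molars and 5390 and 5000 FPKM in upper and lower control molars, while the other synthetases tested summed to far less. With Lars2, the synthetase list summed to 6310 and 5770 FPKM in the mutants and 5440 and 5050 FPKM in the controls. The median of the tested synthetases was 1.79 and 1.80 FPKM in the mutants and 1.78 and 1.81 FPKM in the controls. Whether the reads listed under Lars2 came from its messenger RNA was not tested, so its values are not read as its level. Uqcr11, a small subunit of respiratory complex III, was at 21.2 and 16.3 FPKM in the mutants against 12.3 and 12.1 FPKM in the controls (limma 0.57 ± 0.12, adjusted p = 0.14), and Uqcrq, of the same complex, was at 22.8 and 20.3 FPKM against 16.9 and 14.7 FPKM (limma 0.43 ± 0.10, adjusted p = 0.17). Neither passed the test, and in both the mutants lay above the controls without overlap. Among the head-to-head neighbours, Ndufb5, a subunit of respiratory complex I beside Mrpl47, was at 16.1 and 15.6 FPKM in the mutants against 13.9 and 9.78 FPKM in the controls, whereas Mrpl47 was at 3.66 and 2.48 FPKM in the mutants against 4.15 and 3.95 FPKM in the controls. Fau, a cytosolic ribosomal protein gene beside Mrpl49, was at 142 and 148 FPKM in the mutants against 115 and 107 FPKM in the controls, and Mrpl49 at 7.67 and 6.89 FPKM against 5.96 and 7.63 FPKM.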
